A study of Mus musculus with 6 samples.

Results

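Transcript levels of 9 genes of purine and cAMP signalling were examined in regulatory T cells (Treg cells): Nt5e, Entpd1, Adora2a, P2rx7, Ada, Cd38, Pde4b, Pde4d and Pde3b. The members were the probe sets that the platform annotation gives to each of these symbols alone. This gave 19 probe sets of 7 genes, out of 45101 probe sets and 18194 annotated genes on the array. Adora2a and Cd38 had no probe set listed under their names and were not analysed here. Cells had been sorted from C57BL/6 mice of 4 genotypes: Foxo1KO/Foxo1AAA (1 array), Foxo1AAA (1 array), Foxo1KO (2 arrays) and wild type (WT, 2 arrays). Foxo1KO cells lack the forkhead transcription factor Foxo1, Foxo1AAA cells express a constitutively active form of it, and Foxo1KO/Foxo1AAA cells combine both alleles. The design asked which transcripts depend on Foxo1 and whether the active form restores them in the knockout. The driver of the deletion, the deleted part of Foxo1, the promoter and site of the active form, the sorting gates, the sexes and ages of the mice and any pooling of mice are not given in the sources used here.

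Treg cells restrain other lymphocytes partly through purines and cAMP. Extracellular ATP is a danger signal that opens the channel P2rx7. Entpd1 (CD39) removes phosphates from ATP and ADP to leave AMP, and Nt5e (CD73) removes the last phosphate to leave adenosine. Adenosine acts on receptors such as Adora2a, which raise cAMP in T cells and dampen their activation, until Ada, adenosine deaminase, turns it into inosine. Cd38 consumes NAD at the cell surface. Within the cell, Pde4b, Pde4d and Pde3b are phosphodiesterases that degrade cAMP. These are textbook roles and were not measured here.

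All values are deposited log2 RMA intensities, so a difference of 1 is a doubling, and levels are not compared between probe sets. Where a gene has several probe sets, that with the highest mean over the 6 arrays is its lead probe set. A probe set was called when its limma adjusted p was under 0.05 over all 45101 probe sets. Its spread is that within the 2 replicated groups, and it was assumed to hold for the 2 groups with 1 array. Nothing stated how many mice each replicate array came from, so how far the p-values reflect spread between mice is unknown. Y-linked signal, given below, differed within each replicated pair, so its arrays were not repeats of the same RNA sample. Among the 7 lead probe sets, replicates differed by at most 0.36 between Foxo1KO arrays and by at most 0.18 between WT arrays.

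The arrays differed in more than genotype. The mean log2 level of 3 Y-linked genes was 9.43 in Foxo1KO/Foxo1AAA, 9.52 in Foxo1AAA, 3.89 and 8.62 in Foxo1KO and 3.77 and 9.10 in WT. Xist, expressed from the inactive X chromosome, measured 6.27 in Foxo1KO/Foxo1AAA, 6.04 in Foxo1AAA, 13.14 and 12.59 in Foxo1KO and 13.43 and 12.03 in WT. Replicate 1 of Foxo1KO and of WT thus showed no Y-linked signal, replicate 2 of each showed both, and both arrays with the active form showed Y-linked signal without Xist. The last pattern belongs to the arrays with Foxo1AAA alone, so it cannot be told apart from the active form. The 8 measured Treg markers averaged 11.28 in Foxo1KO/Foxo1AAA, 11.25 in Foxo1AAA, 11.29 and 11.44 in Foxo1KO and 11.32 and 11.28 in WT, with Il2ra at 11.15 to 11.48. The average hides opposite moves. In Foxo1KO minus WT Gpr83 was called lower (-1.20, limma adjusted p = 1.7e-04), Capg higher (0.43, 0.027) and 6 were not called. The defining gene Foxp3 lay at 5.10 to 5.58, its mean being below 5.47, the 25th percentile of lead probe sets used here as the dim level. Foxo1 itself measured 9.66 in Foxo1KO/Foxo1AAA, 10.71 in Foxo1AAA, 10.87 and 10.65 in Foxo1KO and 11.03 and 11.35 in WT on its lead probe set. The part of the transcript that this probe set reads may lie outside the deletion, so it does not check the knockout.

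The promoters of the genes whose lead probe set spanned at least 1 log2 unit are shown because Foxo1 binds DNA through a forkhead domain, which recognises TGTTTAC. The sequences are RefSeq's for GRCm38.p6 and cover 250 bases before each transcription start, read 5′ to 3′ on the gene's strand. Capitals mark the core TGTTTA or its reverse complement TAAACA, which the longer motif also contains. The windows are Nt5e at chr9:88327359-88327608 (plus strand), Entpd1 at chr19:40612116-40612365 and chr19:40659520-40659769 (both plus), Ada at chr2:163750240-163750489 (minus), and Pde4b at chr4:102421305-102421554 and chr4:102569810-102570059 (both plus).
Nt5e promoter: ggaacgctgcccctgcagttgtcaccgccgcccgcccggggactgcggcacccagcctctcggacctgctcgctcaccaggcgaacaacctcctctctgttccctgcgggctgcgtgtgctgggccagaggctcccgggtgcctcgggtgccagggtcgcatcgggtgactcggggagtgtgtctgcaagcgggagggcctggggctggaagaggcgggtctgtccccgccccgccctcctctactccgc
Entpd1 promoter 1: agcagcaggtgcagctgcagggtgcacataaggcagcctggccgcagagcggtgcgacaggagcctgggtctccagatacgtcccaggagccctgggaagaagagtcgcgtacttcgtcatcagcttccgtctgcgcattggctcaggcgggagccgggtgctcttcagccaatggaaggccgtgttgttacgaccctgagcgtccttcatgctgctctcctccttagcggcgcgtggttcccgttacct
Entpd1 promoter 2: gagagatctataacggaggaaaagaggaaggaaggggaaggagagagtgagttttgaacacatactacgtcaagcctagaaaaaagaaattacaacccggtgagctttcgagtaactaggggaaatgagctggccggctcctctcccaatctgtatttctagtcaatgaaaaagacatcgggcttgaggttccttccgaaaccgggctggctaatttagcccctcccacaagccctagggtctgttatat
Ada promoter: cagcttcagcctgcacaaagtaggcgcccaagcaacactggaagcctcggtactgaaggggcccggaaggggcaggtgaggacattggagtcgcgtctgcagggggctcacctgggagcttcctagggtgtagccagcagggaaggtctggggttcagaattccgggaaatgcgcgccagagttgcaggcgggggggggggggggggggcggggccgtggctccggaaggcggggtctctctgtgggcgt
Pde4b promoter 1: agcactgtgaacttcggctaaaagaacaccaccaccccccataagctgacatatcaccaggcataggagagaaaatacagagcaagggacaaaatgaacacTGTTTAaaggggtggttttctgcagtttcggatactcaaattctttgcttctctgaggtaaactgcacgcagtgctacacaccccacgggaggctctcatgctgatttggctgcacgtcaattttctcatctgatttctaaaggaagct
Pde4b promoter 2: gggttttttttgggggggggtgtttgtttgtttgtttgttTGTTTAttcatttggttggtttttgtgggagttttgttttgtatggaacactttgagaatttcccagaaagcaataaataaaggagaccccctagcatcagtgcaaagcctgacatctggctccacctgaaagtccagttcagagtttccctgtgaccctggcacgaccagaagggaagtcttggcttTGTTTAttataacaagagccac
RefSeq windows were found for 7 of the 9 genes, 12 windows in all, and none for Adora2a and Pde3b. The longer motif, TGTTTAC or GTAAACA on either strand, was in 0 of these 12 windows and in 3.17% of 32851 mouse promoters of the same length. The shorter core was in 4 of the 12 windows, those of Pde4b promoters 1 and 2, P2rx7 and Pde4d, and in 12% of all promoters. In Pde4b the matches began 149 bases before the start in promoter 1 and 210 and 22 bases before it in promoter 2. The windows of Nt5e, Entpd1 and Ada held no match, nor did the 2 further windows of Pde4b, at chr4:102587308-102587557 and chr4:102589593-102589842, which are not shown. A match is a description of letters, not a binding site.

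Loss of Foxo1 moved the enzymes of this pathway in opposite directions. In Foxo1KO cells the adenosine-forming enzyme Nt5e and the cAMP-degrading enzyme Pde4b were 6.78-fold and 6.38-fold lower than in WT cells. The upstream enzyme Entpd1 was 2.13-fold higher, and adenosine deaminase (Ada) was 2.52-fold higher. The lead probe sets of P2rx7 (1.30-fold lower) and Pde4d (1.37-fold higher) also passed the test, and that of Pde3b did not. In all, 12 of the 19 probe sets were called, 5 higher and 7 lower, whereas 13.7% of all probe sets on the array were called (5.37% higher and 8.34% lower). Of the 7 lead probe sets 6 were called, against 14.1% of the lead probe sets of all genes. The genes were chosen with results of these data known, and probe sets of the same gene share transcripts, so the counts are descriptions. The median difference of the 7 lead probe sets was 0.30 and that of all genes 0.03.

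**Figure D1:**
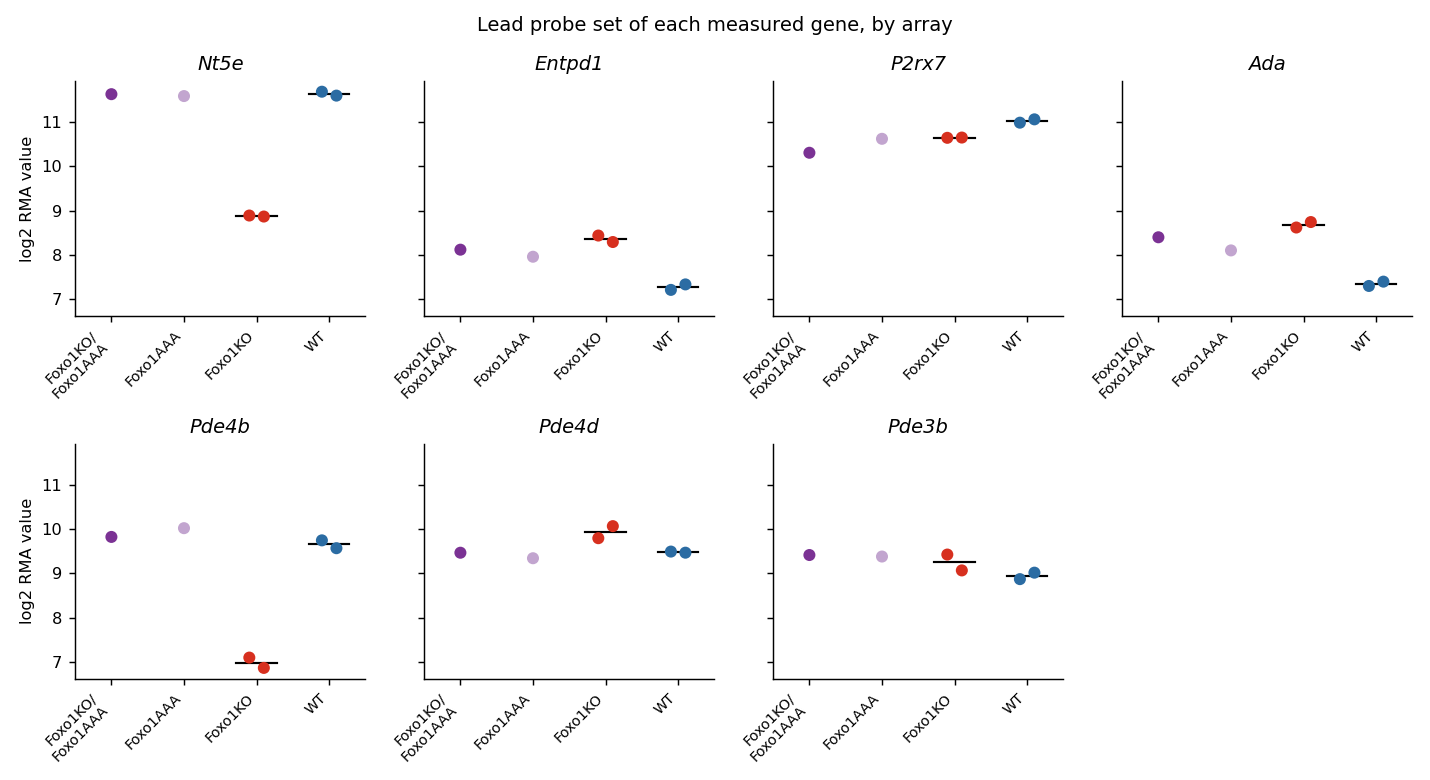
Log2 RMA level of the lead probe set of each of the 7 measured genes on every array, grouped by genotype; points are arrays and bars are the means of the 2 arrays of Foxo1KO and WT. Nt5e and Pde4b are low in Foxo1KO alone, at 8.86 to 8.89 and 6.86 to 7.10, whereas Entpd1 and Ada are lowest in WT.

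Nt5e fell most on its lead probe set, 1428547_at. It measured 8.89 and 8.86 in Foxo1KO, against 11.68 and 11.59 in WT. The groups lay far apart, and the arrays of each pair agreed closely. The difference was -2.76 (SE 0.10, 95% interval -2.99 to -2.54, limma adjusted p = 2.4e-06). Probe set 1422974_at also fell, with 7.72 and 7.80 in Foxo1KO and 8.36 and 8.43 in WT, a smaller difference of -0.63 (SE 0.10, adjusted p = 0.0035). The dimmest of the 3, 1459023_at, had 5.64 and 5.57 in Foxo1KO, against 5.63 and 5.88 in WT (difference -0.15, adjusted p = 0.50). Averaging the 3 probe sets gave -1.18. Between arrays matched for Y-linked signal the lead difference was -2.79 without that signal and -2.73 with it.

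Entpd1, which makes the AMP that Nt5e consumes, was higher in Foxo1KO on all 3 of its probe sets. The lead, 1423326_at, measured 8.44 and 8.29 in Foxo1KO, against 7.21 and 7.33 in WT, and the groups did not overlap. The difference was 1.09 (SE 0.11, adjusted p = 2.7e-04). Probe sets 1453586_at and 1450939_at differed by 0.89 (adjusted p = 0.0015) and 0.83 (adjusted p = 8.3e-04), so the probe sets agreed in direction and nearly in size. Matched for Y-linked signal, the lead difference was 1.23 between arrays without it and 0.96 between arrays with it.

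Ada has 1 probe set, 1417976_at. It measured 8.62 and 8.74 in Foxo1KO, against 7.30 and 7.40 in WT. Both knockout arrays lay above both WT arrays by more than 1 log2 unit, and the difference was 1.33 (SE 0.10, 95% interval 1.10 to 1.57, adjusted p = 8.8e-05). The values matched for Y-linked signal, 1.32 without it and 1.34 with it, were close to each other.

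The probe sets of P2rx7, the ATP-gated channel, were not all called, and no test compared them with each other. The lead, 1439787_at, had 10.64 and 10.65 in Foxo1KO, against 10.98 and 11.06 in WT (difference -0.38, SE 0.10, adjusted p = 0.036). Probe set 1419853_a_at had 7.98 and 8.13 in Foxo1KO, against 8.60 and 8.48 in WT (difference -0.49, adjusted p = 0.018). Both were lower in the knockout without overlap, but 1422218_at was not called, with 7.41 and 7.41 in Foxo1KO and 7.16 and 7.48 in WT. The lead call ended without any single WT or Foxo1KO array (adjusted p = 0.096 to 0.18), with the replicate block (0.087) and with the 3 probe sets averaged (0.059). That of 1419853_a_at ended without replicate 1 of Foxo1KO (0.12) or of WT (0.10).

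Pde4b fell on 3 of its 6 probe sets. The lead, 1442700_at, measured 7.10 and 6.86 in Foxo1KO, against 9.74 and 9.56 in WT (difference -2.67, SE 0.12, 95% interval -2.95 to -2.40, adjusted p = 7.0e-06). Probe set 1422474_at measured 6.96 and 6.75 in Foxo1KO, against 9.15 and 9.17 in WT (difference -2.30, adjusted p = 9.4e-06). Probe set 1422473_at measured 6.82 and 6.32 in Foxo1KO, against 8.33 and 8.45 in WT (difference -1.82, adjusted p = 1.4e-04). On these 3 the highest knockout array stayed well below the lowest WT array. The other 3, with means below the dim level, lay between 3.20 and 5.67 on all arrays and were not called, so they carry little information. Averaging all 6 probe sets, dim ones included, gave -1.14. Matched for Y-linked signal, the lead difference was -2.64 without it and -2.70 with it.

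Pde4d and Pde3b, which also degrade cAMP, differed less. Pde4d, on lead probe set 1435280_at, had 9.79 and 10.06 in Foxo1KO, against 9.49 and 9.46 in WT (difference 0.45, SE 0.12, adjusted p = 0.035). This call ended without replicate 2 of Foxo1KO (difference 0.31, adjusted p = 0.19) or either WT array (0.10 and 0.12), with the replicate block (0.063) and with its 2 probe sets averaged (0.28, 0.065). Its other probe set, 1459311_at, was dim at 3.70 to 3.89 on all arrays. Pde3b, which cGMP can inhibit, had 9.42 and 9.06 in Foxo1KO, against 8.87 and 9.01 in WT on 1433694_at (difference 0.30, SE 0.13, adjusted p = 0.20). The knockout arrays of Pde3b lay above those of WT, but the pair was spread more widely than the gap to WT.

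**Figure D2:**
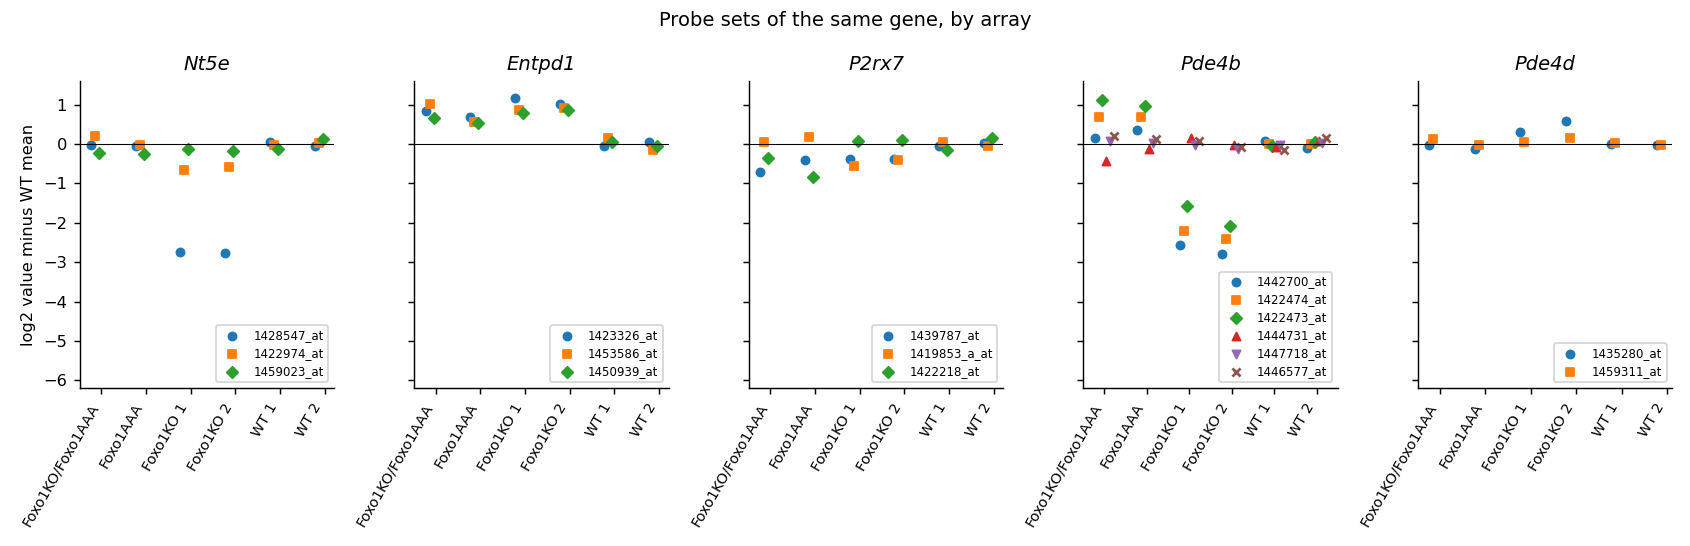
Log2 value minus the WT mean for each probe set of the 5 genes with more than 1 probe set, by array. All 3 Entpd1 probe sets lie above 0 in the Foxo1KO arrays, 3 of 6 Pde4b probe sets lie far below 0 there, and the 2 called Nt5e probe sets fall by unequal amounts (-2.76 and -0.63).

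With active Foxo1 added to the knockout, Nt5e and Pde4b were high again, and Entpd1 and Ada stayed near their knockout levels. Nt5e measured 11.63 in Foxo1KO/Foxo1AAA on its lead probe set, 6.72-fold above Foxo1KO (difference 2.75, SE 0.12, adjusted p = 5.1e-06). Pde4b measured 9.82 on its lead, 7.15-fold above Foxo1KO (difference 2.84, SE 0.15, adjusted p = 1.0e-05). Of the 19 probe sets 8 were called, 6 higher and 2 lower, against 30.7% of all probe sets (14.4% higher and 16.2% lower). With arrays centred on their medians 6 were called higher and 1 lower, and over all probe sets 7963 higher and 5265 lower, against 6499 and 7327 as deposited. Of the 7 lead probe sets 3 were called, against 31.4% for all genes. Counted so, the genes stood close to the array as a whole. The median difference was -0.25 over the 7 lead probe sets and -0.07 over all genes.

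The second probe set of Nt5e, 1422974_at, measured 8.60 in Foxo1KO/Foxo1AAA and was also called higher than in Foxo1KO (difference 0.84, adjusted p = 0.0019). Averaged over all probe sets of a gene, the difference was 1.17 for Nt5e and 1.44 for Pde4b. The remaining bright Pde4b probe sets, 1422474_at and 1422473_at, measured 9.84 and 9.51 and were higher by 2.99 and 2.94 (adjusted p = 5.1e-06 and 3.1e-05). Both values lay above the 2 WT arrays of the same probe set. The dim Pde4b probe set 1444731_at had 5.09 in Foxo1KO/Foxo1AAA, below the dim level, against 5.67 and 5.48 in Foxo1KO, so that the call (adjusted p = 0.029) stands for a fall of at least 1.08-fold. That call ended without Foxo1KO replicate 1 (0.12).

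Entpd1 measured 8.12 in Foxo1KO/Foxo1AAA, close to its 8.44 and 8.29 in Foxo1KO (difference -0.25, 95% interval -0.54 to 0.05, adjusted p = 0.19). Its other probe sets differed by 0.12 and -0.16 and were not called either. Ada had 8.40 in Foxo1KO/Foxo1AAA (difference -0.28, 95% interval -0.57 to 0.01, adjusted p = 0.12). A return to the WT level would have needed a fall of 1.09 for Entpd1 and 1.33 for Ada, and both intervals exclude it. P2rx7 again split by probe set: 1419853_a_at was higher by 0.53 (8.58 in Foxo1KO/Foxo1AAA, adjusted p = 0.018), whereas the lead was not called (10.30, difference -0.34, adjusted p = 0.061). The call of 1419853_a_at ended without Foxo1KO replicate 1 (0.075). Pde4d fell to 9.46 in Foxo1KO/Foxo1AAA (difference -0.46, adjusted p = 0.039), which did not hold without Foxo1KO replicate 2 (0.13), with arrays centred on their medians (0.086) or with its 2 probe sets averaged (0.14). Pde3b had 9.41 in Foxo1KO/Foxo1AAA and was not called (difference 0.17, adjusted p = 0.47). A covariate for Y-linked signal ended the calls of P2rx7 1419853_a_at (0.061), Pde4d (0.061) and Pde4b 1444731_at (0.087). This covariate puts both arrays with active Foxo1 in a class with replicate 2 of Foxo1KO and of WT, which also showed Xist. It therefore does not match the Xist signal in any comparison of arrays with and without Foxo1AAA.

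**Figure D3:**
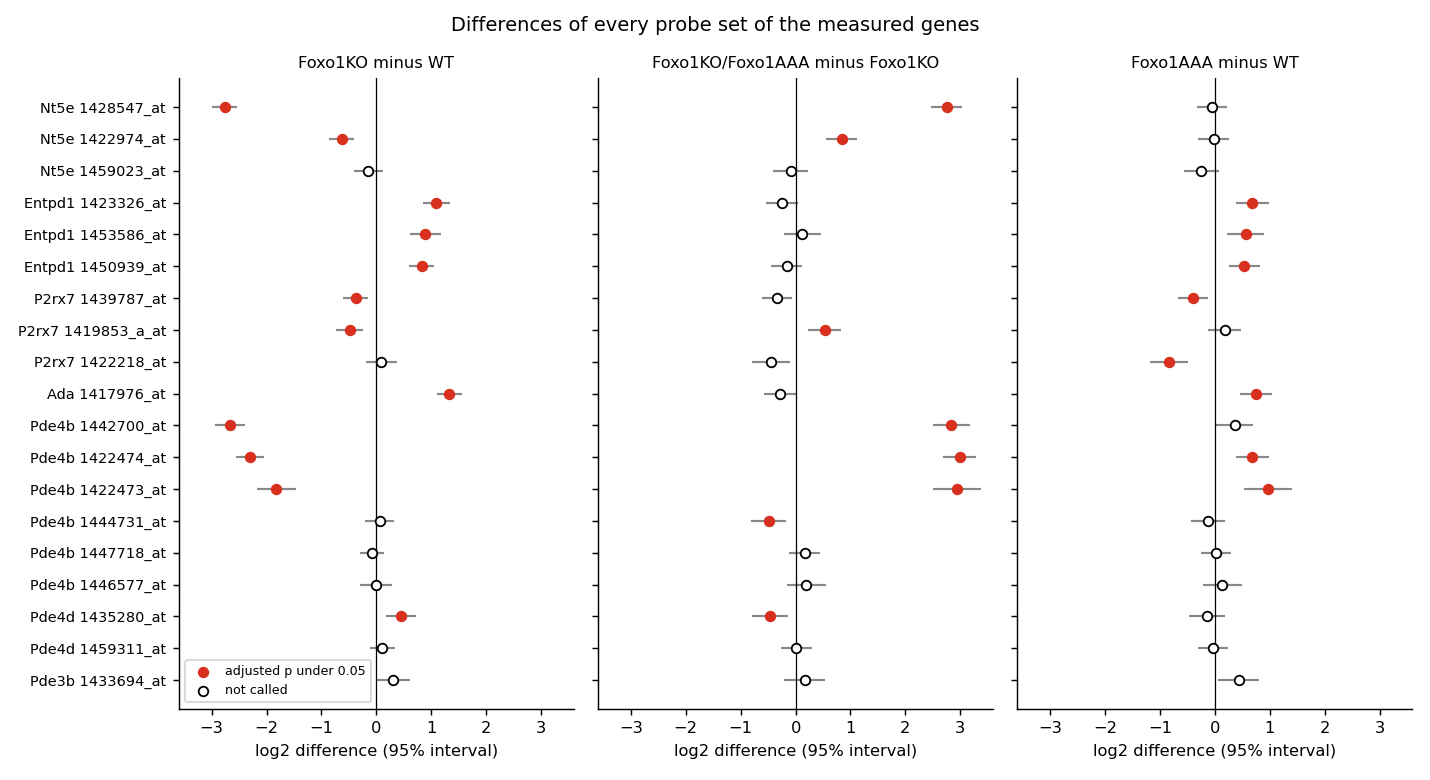
Log2 difference of each of the 19 probe sets with its 95% interval in 3 comparisons; filled points are called at an adjusted p under 0.05. In Foxo1KO minus WT the Nt5e and Pde4b lead points lie at -2.76 and -2.67, in Foxo1KO/Foxo1AAA minus Foxo1KO at 2.75 and 2.84, and the 3 Entpd1 points are called in Foxo1KO minus WT and in Foxo1AAA minus WT.

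In cells with active Foxo1 and the normal gene, Entpd1 and Ada were higher than in WT, and Nt5e was not called. Nt5e had 11.58 in Foxo1AAA, against 11.68 and 11.59 in WT (difference -0.05, 95% interval -0.33 to 0.22, adjusted p = 0.78). Entpd1 had 7.96 in Foxo1AAA, against 7.21 and 7.33 in WT (difference 0.69, SE 0.13, adjusted p = 0.0087). Ada had 8.10 in Foxo1AAA, against 7.30 and 7.40 in WT (difference 0.75, SE 0.13, adjusted p = 0.0053). The Foxo1AAA array lay above both WT arrays for these 2 genes. Of the 19 probe sets 8 were called, 6 higher and 2 lower, against 23.6% of all probe sets (10.4% higher and 13.2% lower), and 3 of 7 lead probe sets, against 22.6% for all genes. With arrays centred on their medians, which moved the median of all probe sets by 0.11, 8 were called higher and 1 lower, and over all probe sets 6703 higher and 3446 lower, against 4687 and 5960 as deposited.

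Both other Entpd1 probe sets were called higher in Foxo1AAA, by 0.56 (1453586_at, adjusted p = 0.028) and 0.54 (1450939_at, 0.017), but not without WT replicate 2 (0.10 and 0.063). The Pde4b lead had 10.02 in Foxo1AAA, against 9.74 and 9.56 in WT, and was not called (difference 0.36, adjusted p = 0.11). Pde4b probe sets 1422474_at and 1422473_at were called higher by 0.69 (9.84 in Foxo1AAA, adjusted p = 0.0094) and 0.97 (9.36, adjusted p = 0.010). For P2rx7, 1422218_at was lower by 0.83 on the log2 scale in Foxo1AAA, at 6.49 against 7.16 and 7.48 in WT (adjusted p = 0.0074). The P2rx7 lead had 10.62 in Foxo1AAA (difference -0.40, adjusted p = 0.042), a call that ended without each replicated array in turn and with centred arrays (0.13). Pde4d had 9.34 and Pde3b 9.38 in Foxo1AAA, differences of -0.14 (adjusted p = 0.52) and 0.44 (0.087). With centred arrays the Pde4b lead (0.043) and Pde3b (0.030) were called. With the Y-linked class as a covariate the calls of the P2rx7 lead (0.11) and of Entpd1 1453586_at (0.051) and 1450939_at (0.058) ended.

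Markers of other cells moved with the active form. The 10 measured myeloid markers averaged 9.64 in Foxo1KO/Foxo1AAA, 9.27 in Foxo1AAA, 7.68 and 7.34 in Foxo1KO and 6.96 and 7.15 in WT. In Foxo1AAA 9 of the 10 were called higher than in WT, with a median difference of 2.74, and in Foxo1KO/Foxo1AAA 9 were called higher than in Foxo1KO, with a median of 2.43. Csf1r, the receptor for macrophage colony-stimulating factor, measured 12.38 in Foxo1KO/Foxo1AAA, 11.99 in Foxo1AAA, 9.12 and 8.52 in Foxo1KO and 8.36 and 8.93 in WT. The myeloid marker Itgam was dim on all arrays. The 8 B cell markers averaged 7.28 in Foxo1KO/Foxo1AAA, 7.50 in Foxo1AAA, 6.92 and 6.45 in Foxo1KO and 6.38 and 6.61 in WT, with 6 called higher in Foxo1AAA than in WT. Between Foxo1KO and WT, 3 myeloid markers and 1 B cell marker were called higher. The 7 CD8 T and NK cell markers averaged 7.43 in Foxo1KO/Foxo1AAA, 6.91 in Foxo1AAA, 7.55 and 7.61 in Foxo1KO and 6.23 and 6.26 in WT. In Foxo1KO minus WT 4 were called higher: Klrc1 (4.04), Eomes (2.25), Xcl1 (1.27) and Klrd1 (1.23). Cd8a (0.19), Cd8b1 (0.18) and Ncr1 (0.21) were not called. The 5 naive CD4 T cell markers averaged 11.88 in Foxo1KO/Foxo1AAA, 11.94 in Foxo1AAA, 10.78 and 10.98 in Foxo1KO and 11.67 and 11.73 in WT, with 4 called lower in Foxo1KO. Their part in the differences of the 7 genes was not tested. In sorted bulk cells, fewer cells of a type and less RNA per cell cannot be told apart.

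**Figure D4:**
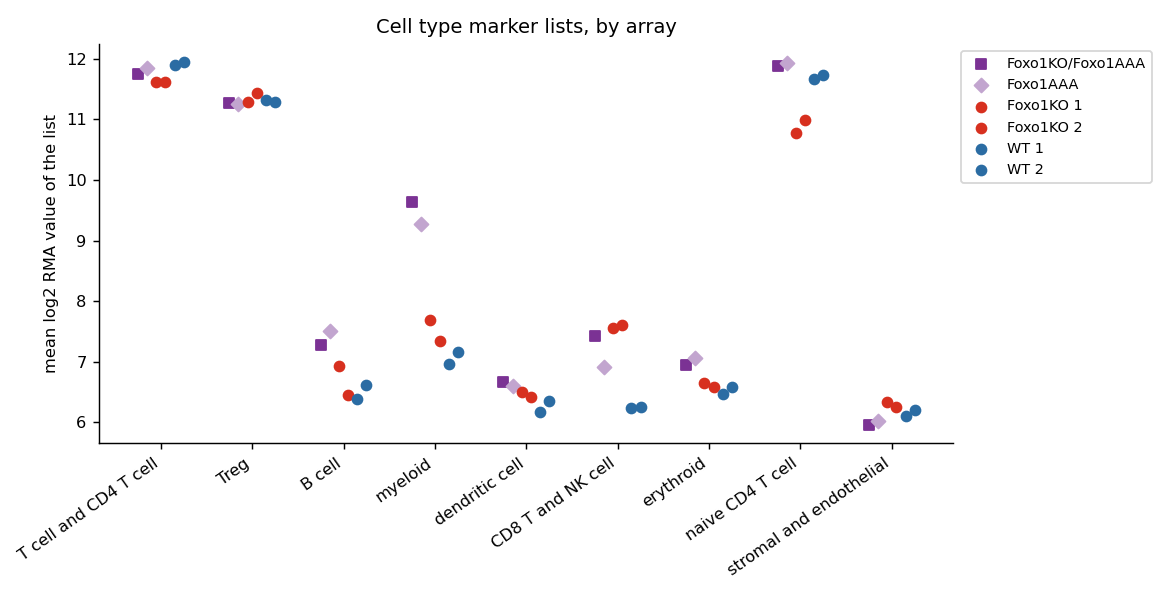
Mean log2 RMA value of each of the 9 cell type marker lists on every array. The myeloid list lies at 9.64 and 9.27 in the 2 arrays with Foxo1AAA, above 6.96 to 7.68 elsewhere, and the naive CD4 T cell list is lowest in the Foxo1KO arrays.

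Set directly against WT, knockout cells with active Foxo1 had higher Entpd1 and Ada, and their Nt5e was not called. Nt5e differed by -0.01 (95% interval -0.29 to 0.26, adjusted p = 0.96). Entpd1 was 1.80-fold higher in Foxo1KO/Foxo1AAA (difference 0.85, adjusted p = 0.0031), with its other probe sets higher by 1.01 (0.0024) and 0.67 (0.0066). Ada was 2.07-fold higher (difference 1.05, adjusted p = 9.5e-04). The P2rx7 lead differed by -0.72 (adjusted p = 0.0044; -0.34 with the 3 probe sets averaged). The Pde4b lead was not called (difference 0.17, adjusted p = 0.45), but 1422474_at and 1422473_at were higher by 0.68 (0.0084) and 1.12 (0.0050). Pde4d differed by -0.01 (0.96) and Pde3b by 0.47 (0.069). In all, 7 of 19 probe sets were called, 6 higher and 1 lower, against 24.3% of all probe sets (11.7% higher and 12.7% lower), and 3 of 7 lead probe sets, against 23.1% for all genes. With centred arrays 7 were called higher and 1 lower, and over all probe sets 6332 higher and 3784 lower, against 5256 and 5716 as deposited.

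With active Foxo1 present, loss of the normal gene made no difference that passed the test in these genes. Between the single Foxo1KO/Foxo1AAA and Foxo1AAA arrays, 0 of 19 probe sets were called by limma, 2 had an unadjusted p under 0.05, and 0.0554% of all probe sets were called. For lead probe sets the count was 0 of 7, beside 0.055% for all genes. The lead differences were 0.04 for Nt5e (95% interval -0.28 to 0.36), 0.16 for Entpd1 (-0.18 to 0.50), 0.30 for Ada (-0.04 to 0.63) and -0.20 for Pde4b (-0.58 to 0.19). The intervals exclude the Foxo1KO minus WT differences of these 4 genes.

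An interaction asked if the effect of the knockout depended on active Foxo1: it is the Foxo1KO/Foxo1AAA minus Foxo1AAA difference less the Foxo1KO minus WT difference. It was called for 7 of 19 probe sets, 5 higher and 2 lower, against 2.98% of all probe sets (1.73% higher and 1.25% lower), and for 4 of 7 lead probe sets, against 3.35% for all genes. Over all probe sets 1345 were called, but 353 without Foxo1KO replicate 1 and 222 without replicate 2, when 4 of the 19 were called each time. The 4 lead probe sets called on all arrays were those of Nt5e (2.80, SE 0.17, adjusted p = 3.7e-04), Pde4b (2.48, SE 0.21, 0.0013), Ada (-1.04, SE 0.18, 0.023) and Entpd1 (-0.93, SE 0.18, 0.036). A positive value here means that the fall in the knockout was smaller with active Foxo1, and a negative one that the rise was smaller. In Ada and Entpd1 the smaller rise started from a higher level, since Foxo1AAA lay above WT by 0.75 and 0.69. Their levels in Foxo1KO/Foxo1AAA, 8.40 and 8.12, stayed near the Foxo1KO means of 8.68 and 8.36. For Ada and Entpd1 the call ended without Foxo1KO replicate 1 (0.074 and 0.12) or replicate 2 (0.096 and 0.095), and for Entpd1 also without WT replicate 1 (0.068). With the Y-linked class as a covariate Ada (0.050) and Entpd1 (0.089) were not called, and Nt5e and Pde4b were (0.0015 and 0.0026). P2rx7, Pde4d and Pde3b were not called (0.06, -0.33 and -0.27 on their lead probe sets). With probe sets averaged the interaction was 1.27 for Nt5e and 1.10 for Pde4b, and both were called (0.0047 and 0.012).

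The surrounding pathway was described with 8 lists of other genes, 102 in all, of which 90 had a probe set and 75 a lead mean above the dim level. In Foxo1KO minus WT 17 of the 90 were called, 5 higher and 12 lower (18.9%, beside 14.1% for all genes). In Foxo1KO/Foxo1AAA minus Foxo1KO 31 were called, 19 higher and 12 lower (34.4%, beside 31.4%), and in Foxo1AAA minus WT 24, 13 higher and 11 lower (26.7%, beside 22.6%). These shares were a little above those of all genes, and the list medians were 0.00, -0.03 and -0.08. The same shares of all genes stand beside the counts of each list given below.

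Adenosine uptake and metabolism was the list with the most called falls in Foxo1KO minus WT, 4 against 3 among the cAMP effectors. Of 13 measured genes 4 were lower in Foxo1KO than in WT and 0 higher. Adenosine kinase (Adk), which returns adenosine to AMP, had 10.21 and 10.05 in Foxo1KO, against 11.72 and 11.58 in WT (difference -1.52, adjusted p = 6.5e-05). The AMP deaminases Ampd3 and Ampd1 were lower by 1.08 (adjusted p = 1.8e-04) and 1.06 (0.0043) on the log2 scale, and the nucleotidase Nt5c by 0.46 (0.021, but 0.13 without Foxo1KO replicate 1, 0.068 without replicate 2 and 0.12 without WT replicate 1). Knockout arrays lay below WT arrays for all 4. In Foxo1KO/Foxo1AAA 7 genes of this list were higher than in Foxo1KO and 2 lower. Adk had 12.08 there, above both WT arrays (difference 1.95, adjusted p = 4.2e-05; 1.29 with its probe sets averaged), and the nucleoside transporter Slc29a1 had 7.94, against 6.97 and 7.18 in Foxo1KO (difference 0.86, adjusted p = 0.0055). The falls there were those of Slc29a2 (adjusted p = 0.037, its 5.27 in Foxo1KO/Foxo1AAA being below the dim level, so at least 1.25-fold lower) and Ampd2 (-0.49, 0.022), and neither held without either Foxo1KO array.

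Other phosphodiesterases also moved. Of 12 measured, 2 were lower and 1 higher in Foxo1KO. Pde2a, which cGMP stimulates, had 8.86 and 8.86 in Foxo1KO, against 10.94 and 11.08 in WT (difference -2.15, adjusted p = 9.7e-06; -1.33 with its probe sets averaged). The cAMP-specific Pde7a had 7.73 and 7.73 in Foxo1KO, against 9.21 and 9.05 in WT (difference -1.40, adjusted p = 7.1e-05). Its relative Pde7b went the other way, with 6.41 and 6.38 in Foxo1KO and 5.54 and 5.47 in WT (difference 0.89, adjusted p = 5.2e-04). In Foxo1KO/Foxo1AAA Pde2a had 12.20, 10.1-fold above Foxo1KO (difference 3.34, adjusted p = 3.4e-06; 2.02 with its probe sets averaged), and Pde7a had 9.10 (difference 1.37, adjusted p = 1.8e-04). Pde7b had 5.04, below the dim level, and was thus at least 1.90-fold lower than in Foxo1KO. Pde2a also exceeded WT in Foxo1AAA, at 12.20 (difference 1.19, adjusted p = 6.4e-04; 0.73 with probe sets averaged). In Foxo1AAA 3 of the 12 were lower than in WT, including Pde1b (-0.66, adjusted p = 0.0079) and Pde3a (-0.62, 0.027, but 0.085 without WT replicate 2).

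Of 15 measured genes of cAMP synthesis, 2 were lower in Foxo1KO and 0 higher, where 14.1% of all genes were called on their lead probe sets. Ptger2, a prostaglandin E2 receptor that raises cAMP, had 8.03 and 8.23 in Foxo1KO, against 9.88 and 9.51 in WT (difference -1.57, adjusted p = 1.8e-04), and 9.88 in Foxo1KO/Foxo1AAA (1.75 above Foxo1KO, adjusted p = 2.7e-04). Adenylate cyclase 7 (Adcy7) was lower by 0.44 on the log2 scale in Foxo1KO (adjusted p = 0.022), which did not hold without either Foxo1KO array (0.11 and 0.10) or without WT replicate 1 (0.13). Among 20 cAMP effectors 3 were lower in Foxo1KO and 1 higher. The higher one was Crem, a cAMP-responsive transcription factor, with 8.93 and 9.28 in Foxo1KO, against 8.37 and 8.31 in WT (difference 0.76, adjusted p = 0.0050; 0.41 with probe sets averaged). The lower ones were the CREB coactivator Crtc3 (-0.56, adjusted p = 0.0059, but 0.053 without Foxo1KO replicate 2), the anchoring protein Akap13 (-0.43, 0.020) and the kinase Prkx (-0.38, 0.038). The last 2 calls ended without any single WT or Foxo1KO array. Pkig, an inhibitor of protein kinase A, had 8.45 in Foxo1AAA, against 7.20 and 7.39 in WT (difference 1.16, adjusted p = 0.0018).

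Of 15 measured P2 receptors and release channels, 1 was higher and 1 lower in Foxo1KO, where 14.1% of all genes were called on their lead probe sets. P2ry14, a receptor for UDP-sugars, had 6.73 and 6.92 in Foxo1KO, against 5.81 and 5.32 in WT (difference 1.26, adjusted p = 0.0010), and 6.65 in Foxo1AAA (1.09 above WT, 0.0068). P2rx4, another ATP-gated channel, was lower by 0.41 in Foxo1KO (0.036), a call that ended without any single WT or Foxo1KO array (0.059 to 0.19) and with its probe sets averaged (-0.18, 0.19). The ADP receptor P2ry13 had 8.07 in Foxo1KO/Foxo1AAA, against 6.65 and 6.30 in Foxo1KO (difference 1.59, adjusted p = 6.8e-04), and 7.90 in Foxo1AAA, against 6.30 and 6.64 in WT (1.43, 0.0018). The myeloid markers rose on the same 2 arrays, and their part in this was not tested. Adora3, the 1 adenosine receptor measured here, was called in no comparison of groups.

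Of the 9 other ectonucleotidases and pyrophosphatases measured, Entpd7 alone was called in Foxo1KO minus WT (0.40, adjusted p = 0.040), and this ended without any single WT or Foxo1KO array (0.052 to 0.23) and with its probe sets averaged (0.25, 0.056). In Foxo1KO/Foxo1AAA 1 was higher than in Foxo1KO and 4 were lower. Enpp4 had 9.34 there, against 8.23 and 8.42 in Foxo1KO (difference 1.02, adjusted p = 0.0027), and Entpd2 had 6.03, against 6.73 and 6.64 in Foxo1KO (difference -0.65, adjusted p = 0.0063). Of 5 measured genes of NAD and ADP-ribose metabolism, Nampt, the rate-limiting enzyme of NAD salvage, was higher in Foxo1KO, with 9.73 and 9.95, against 9.11 and 9.15 in WT (difference 0.71, adjusted p = 0.0032). The ADP-ribosyltransferase Art1 was lower in Foxo1KO/Foxo1AAA than in Foxo1KO (-0.69, adjusted p = 0.0057; -0.32 with probe sets averaged).

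**Figure D5:**
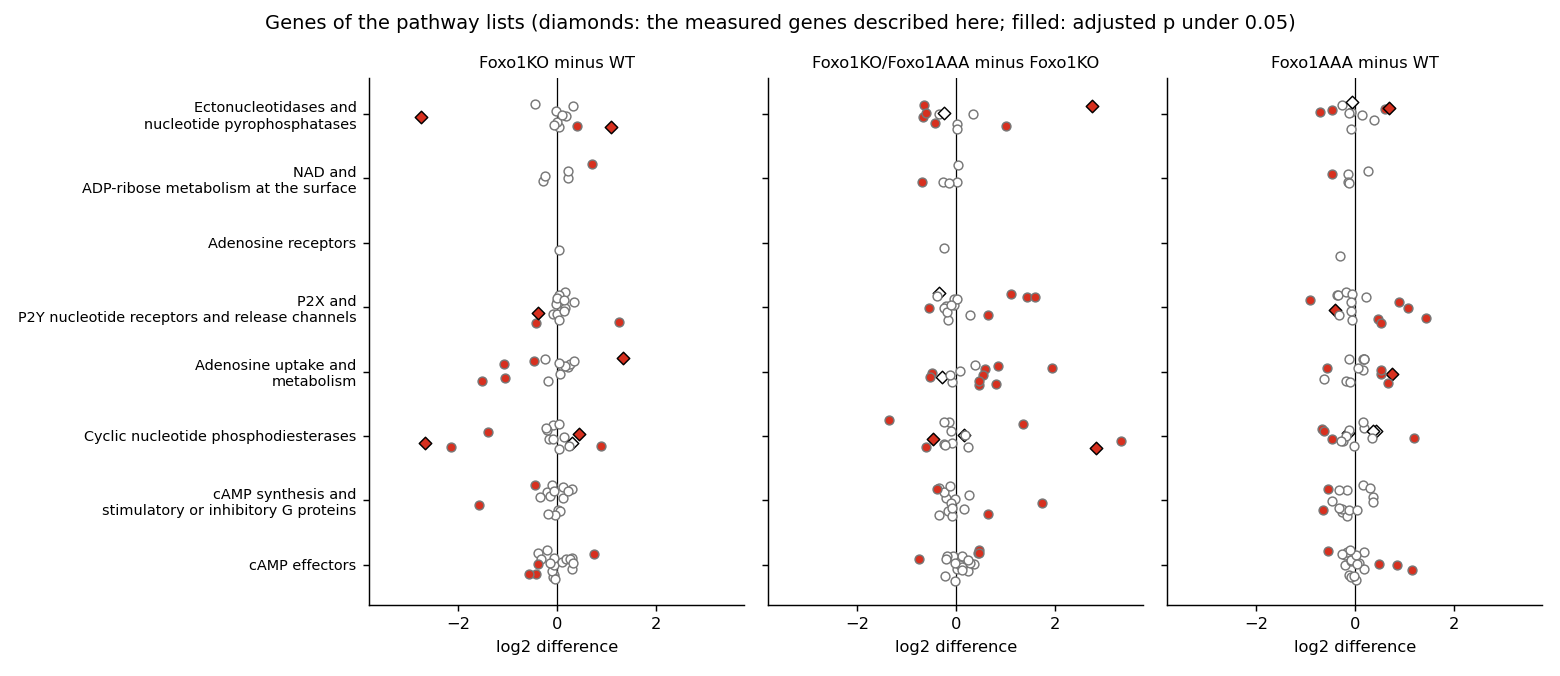
Log2 difference of the lead probe set of each gene in the 8 pathway lists, in 3 comparisons; diamonds are the 7 genes described here, circles the other 90 genes, and filled symbols are called at an adjusted p under 0.05. In Foxo1KO minus WT the lowest points are Nt5e, Pde4b and Pde2a at -2.76, -2.67 and -2.15.

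The genes most like each strongly varying member over the 6 arrays were found by the Euclidean distance between mean-centred log2 values among the 18193 other lead probe sets. Nearest to Nt5e were Pde4b (0.39), Sh3bgrl2 (0.43) and Ms4a6c (0.44). Nearest to Pde4b were Ms4a6c (0.26), Nt5e (0.39) and Mtss1 (0.39). Nearest to Entpd1 were Syne3 (0.13), Plin2 (0.20) and Parp12 (0.24), and nearest to Ada were Dpy19l1 (0.17), Mlkl (0.20) and Ncaph (0.21). Nt5e and Pde4b thus stood among each other's 3 closest genes, while Entpd1 and Ada each had other neighbours.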

How the data were processed

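The deposited values were log2 expression values made by the authors with RMA, which corrects background, quantile-normalizes the arrays together and summarizes probes, per the submitters' processing notes, which name R 2.15 and limma 3.12.1. Per the labels' protocols, 2 ug of total RNA gave biotinylated cRNA. Quantile normalization hides a shift shared by most transcripts, and dim or very bright probe sets understate differences. The files gave no scanner intensities or detection calls, and the number of arrays limits the precision.

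Of 45101 probe sets, 34958 were listed with 1 gene, 932 with several and 9211 not at all; symbols were updated through Entrez identifiers. The fit over all 45101 used R 4.3.3 and limma 3.58.1 (lmFit and eBayes, 4 group coefficients, 2 residual degrees of freedom, prior of 6.54 degrees of freedom and SD 0.11). Tests were two-sided, p-values were adjusted by Benjamini-Hochberg over all probe sets, and the call was made under 0.05. No exact permutation test was run, since 0.333 is the smallest p it allows for 2 against 2 arrays. The fit was tested on simulated data for Foxo1KO minus WT alone, with variances drawn from its own prior. It recovered 88% of changes of 1 log2 unit and 100% of changes of 2, and 6.93% of calls were false. This does not check the comparisons with 1-array groups or the spread assumed for them. Same-numbered Foxo1KO and WT arrays did not deviate together over all probe sets (correlation -0.10), so the main test has no replicate block. Where a group lies below the dim level of 5.47, its fold is a lower bound taken against that level. In 14 alternatives, the unit tested, filter, variance prior, scaling, replicate block, Y-linked class, arrays in the fit and single arrays left out were varied.

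Named genes outside the 9 were, per list, the largest called differences: up to 4 each way in Foxo1KO minus WT and up to 2 each way in the 2 comparisons with Foxo1AAA, from which the text gives a selection. The nearest patterns are named for members spanning at least 1 log2 unit. The members, lists and this rule were chosen with earlier results of these data known.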

Additional observations from a re-analysis of the deposited data

Results flagged for a closer look

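For 7 probe sets the knockout difference itself differed between cells with and without active Foxo1, by limma's interaction term over all probe sets. The difference between the 2 knockout effects was 2.80 (adjusted p = 3.7e-04) for Nt5e on 1428547_at and 0.86 (0.038) on 1422974_at. For Pde4b it was 2.48 (0.0013) on 1442700_at, 2.30 (0.0012) on 1422474_at and 1.97 (0.011) on 1422473_at. It was -0.93 (0.036) for Entpd1 on 1423326_at and -1.04 (0.023) for Ada on 1417976_at. Over the alternatives the adjusted p of the Nt5e and Pde4b lead probe sets reached at most 0.011 and 0.020. That of Nt5e 1422974_at, Entpd1 and Ada reached 0.12, 0.12 and 0.096. The interaction rests on 1 array each of Foxo1KO/Foxo1AAA and Foxo1AAA, whose spread was assumed.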

How the results depend on the processing

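No probe set of the 7 genes changed direction while called under the 14 alternatives. The number of the 19 probe sets called in Foxo1KO minus WT was 12 as reported, 9 to 10 with 1 array left out, and 10 with the replicate block; lead probe sets numbered 6 as reported, 4 to 5 with 1 array left out, and 4 with the block. The block took the calls over all probe sets to 4806, against 6187 without it. Among the 7 genes it ended the calls of the leads of P2rx7 and Pde4d. The labels do not say that the replicate numbers pair the arrays. In Foxo1KO and WT, however, the number coincides with the Y-linked class. In Foxo1KO minus WT the block and the Y-linked covariate thus gave the same 4806 calls. With the Y-linked class as a covariate, 5 probe sets were called in Foxo1KO/Foxo1AAA minus Foxo1KO and 5 in Foxo1AAA minus WT (8 each as reported). In the interaction 4 were called (7 as reported), with 2 lead probe sets (4 as reported). The covariate does not match Xist between arrays with and without Foxo1AAA, and it costs residual degrees of freedom. Calls kept or lost under it therefore do not show what sex make-up contributes there. That covariate took the calls over all probe sets in the 2 comparisons to 9014 and 5424, against 13826 and 10647 as reported, in the interaction to 724, against 1345, and in Foxo1KO/Foxo1AAA minus WT to 6179, against 10972. With 1 array left out the counts were 6 to 9 in Foxo1KO/Foxo1AAA minus Foxo1KO, 5 to 7 in Foxo1AAA minus WT, 7 to 8 in Foxo1KO/Foxo1AAA minus WT, 0 in Foxo1KO/Foxo1AAA minus Foxo1AAA and 4 to 6 in the interaction, where lead probe sets numbered 2 to 4. Lead probe sets numbered 2 to 3 in Foxo1KO/Foxo1AAA minus Foxo1KO, 2 in Foxo1AAA minus WT and 3 to 4 in Foxo1KO/Foxo1AAA minus WT. Over all probe sets, leaving out 1 array gave 3408 to 4504 calls in Foxo1KO minus WT (6187 as reported), 8626 to 13642 in Foxo1KO/Foxo1AAA minus Foxo1KO, 6919 to 9186 in Foxo1AAA minus WT, 7219 to 9455 in Foxo1KO/Foxo1AAA minus WT, 8 to 127 in Foxo1KO/Foxo1AAA minus Foxo1AAA and 222 to 1272 in the interaction. Centring arrays on their medians raised the share of higher among all calls in Foxo1AAA minus WT to 66% and gave 142 calls in Foxo1KO/Foxo1AAA minus Foxo1AAA, against 25 as reported. The cause of these changes was not tested. With the mean of all probe sets of a gene, the Foxo1KO minus WT difference was -1.18 for Nt5e and -1.14 for Pde4b. The 2 groups with 1 array and the 2 residual degrees of freedom limit every comparison with Foxo1AAA.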
